A study of Mus musculus with 6 samples.

Results

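The Rab GTPases were examined in tumour monocytes of mice after treatment with LNP-Gsdme, lipid nanoparticles that deliver gasdermin E mRNA. The family was taken as every protein-coding gene of the deposited table whose symbol is Rab followed by a number and at most 1 letter. That gave 59 genes of 56980, of which 50 passed the low-count filter. The family was chosen with the comparison of these libraries already known, and Rab22a was singled out from that comparison, so Rab22a is described by its values without a test.

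RNA was sequenced from cells sorted out of B16F10 tumours, a transplanted mouse melanoma line that carried mCherry here, with a gate that took CD11b-positive, Ly6C-high cells without Ly6G. Both groups were wild type and both received lipid nanoparticles (LNP), so no untreated cells are among the libraries. The LNP-GFP group (3 libraries) was treated with LNP-GFP and the LNP-Gsdme group (3 libraries) with LNP-Gsdme. Gsdme encodes gasdermin E, a protein that forms membrane pores and can start lytic cell death. Age, dose and time are not in the labels. Nor do they tell whether each library is a separate animal. P-values here therefore reflect the spread between the samples alone, which may be technical.

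Rab proteins are small GTPases that switch between a GTP-bound form, which recruits effectors to a membrane, and a GDP-bound form. Exchange factors (GEFs) load GTP, GTPase-activating proteins (GAPs) end the active state, and a geranylgeranyl anchor ties the protein to its membrane. Each member marks certain membranes, and in monocytes and macrophages the family is known for phagosome maturation, recycling of surface receptors and secretion. RNA level says nothing about how much of a Rab protein is in the active form.

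Total counts were 20233559 to 22932095 per LNP-GFP library and 15991826 to 18751784 per LNP-Gsdme library. Levels of a gene between libraries are given as CPM, its counts scaled to library size and composition, and a gene at 1 CPM had 16.0 to 22.9 counts per library. The 8 monocyte markers, of which 2 rose and none fell, summed to 6759 to 8211 CPM in LNP-GFP and 6879 to 8823 CPM in LNP-Gsdme. The risen markers were Ly6c2, a gene of the Ly6C gate, with 211 to 267 CPM in LNP-GFP and 1374 to 1856 CPM in LNP-Gsdme, and Fcgr1, with 401 to 524 CPM and 806 to 854 CPM. Lyz2 and Csf1r, which make up most of the sum in LNP-GFP, lay lower in every LNP-Gsdme library without passing. Ly6g, the marker used for exclusion, averaged under 1 CPM. Other neutrophil markers were present. The list of 8 that holds Ly6g, of which none rose or fell, summed to 164, 379 and 267 CPM across LNP-GFP 1 to 3. Across LNP-Gsdme 1 to 3 it summed to 415, 288 and 220 CPM. Markers of other cells were also present. The 9 melanoma markers, of which none rose or fell, summed to 339, 1844 and 1106 CPM across LNP-GFP 1 to 3, against 128, 178 and 757 CPM across LNP-Gsdme 1 to 3. The 9 fibroblast markers, of which 4 fell, summed to 8783 to 9872 CPM in LNP-GFP and to 2213 to 5561 CPM in LNP-Gsdme. The 8 mature macrophage markers, of which 1 rose and 1 fell, summed to 3125 to 4945 CPM and to 2989 to 3267 CPM. The 6 dendritic cell markers, of which 2 fell, summed to 121 to 162 CPM in LNP-GFP and 67.4 to 104 CPM in LNP-Gsdme, without overlap. The 6 endothelial markers, of which none passed, summed to 259 to 294 CPM and 206 to 258 CPM, also without overlap. The part of these cells' RNA in the Rab values was not tested. In these bulk samples, fewer cells of a type and less RNA per cell cannot be told apart. LNP-GFP 3 lay between LNP-GFP 1 and LNP-GFP 2 in 70.0% of 7822 well-expressed genes (those averaging 4 or more in log2 CPM), and in 33 of the 50 tested Rab genes. Whether LNP-GFP 3 is independent of the other LNP-GFP libraries is not in the labels and was not tested. If it is not, the SE and p-values given here would be too small.

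The family spanned a wide range of levels. In FPKM, which also divides by gene length and so allows genes to be compared, 8 members averaged at least 50, 14 averaged 10 to 50, 15 averaged 1 to 10 and 22 averaged under 1. The top 8 members held 64.9% of the summed Rab FPKM. The highest was Rab20, which acts in phagosome maturation in macrophages, with a mean level of 178 FPKM and a range over the 6 libraries of 120 to 205 FPKM. Rab8b, which acts in traffic from the Golgi to the plasma membrane, followed at 176 FPKM with a range of 148 to 202 FPKM. The ranges of these 2 genes overlapped, and both lay above the range of every other member.

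The next members by level covered the main stations of the pathway. Rab5c of early endosome fusion averaged 83.8 FPKM, Rab10 of post-Golgi traffic 72.1 FPKM, and Rab7 of late endosome and lysosome fusion 65.0 FPKM. The Golgi and ER members Rab2a, Rab1b and Rab1a averaged 63.9, 51.6 and 50.6 FPKM. The ranges over libraries of neighbours in this order overlapped, so their order was not resolved. At the other end, 9 members were below the low-count filter. These were the neuronal and endocrine secretory genes Rab3b, Rab3c, Rab26 and Rab27b, the epithelial genes Rab17 and Rab25, and Rab9b, Rab40b and Rab42. Rab3c and Rab9b had no count in any library.

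**Figure D1:**
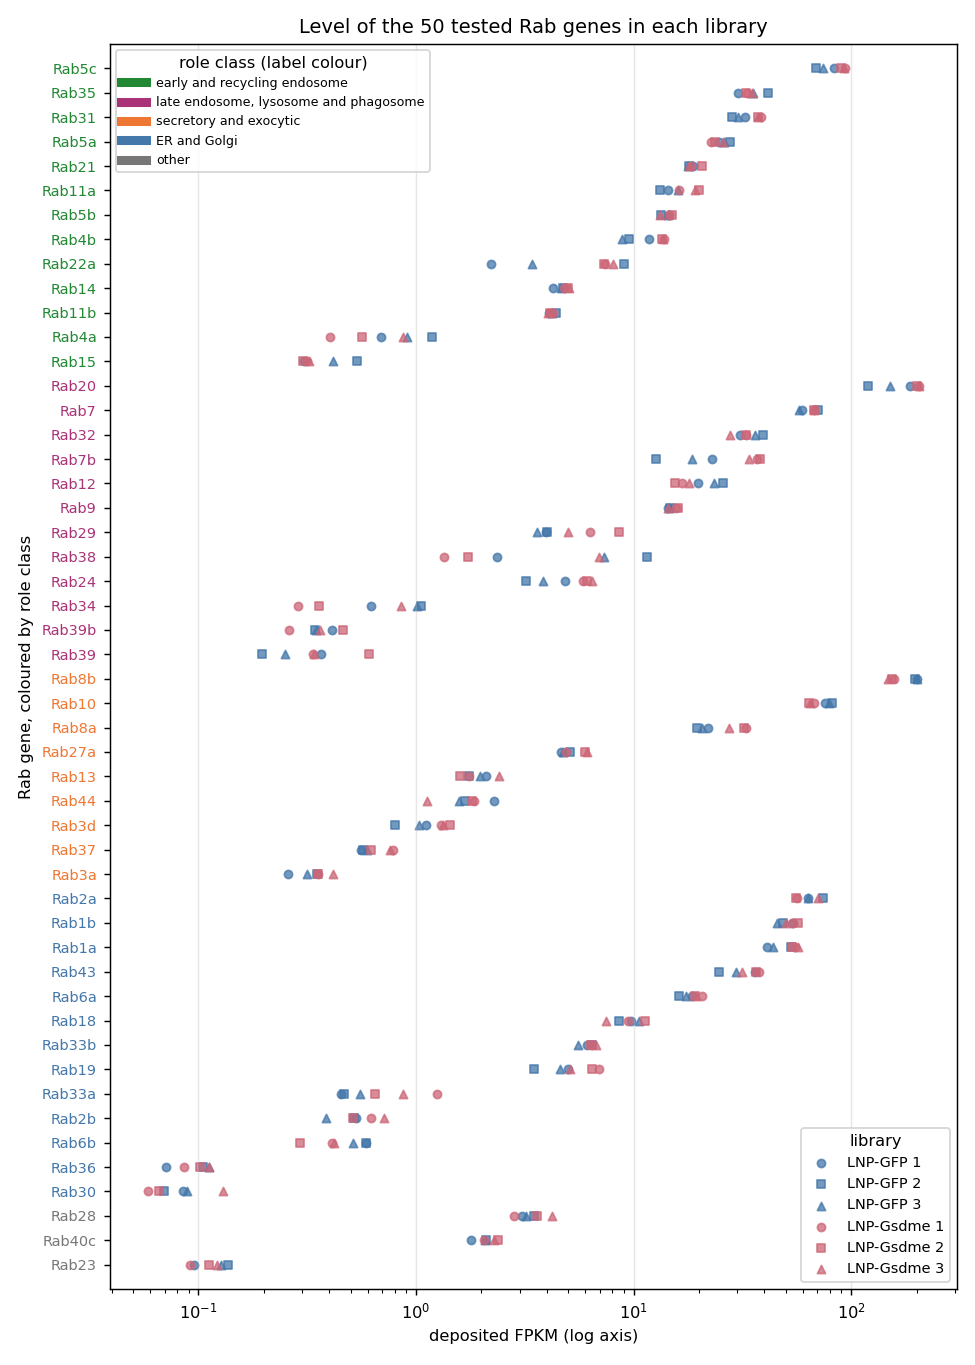
The level of each of the 50 tested Rab genes is plotted in deposited FPKM on a log axis, with 1 symbol per library (blue LNP-GFP, red LNP-Gsdme) and gene labels coloured by role class. Rab20 and Rab8b lie highest with means of 178 and 176 FPKM. For most genes the blue and red symbols lie together, with Rab38, Rab22a, Rab34 and Rab7b among the wider ones.

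Groups were compared with edgeR's quasi-likelihood test over all 16010 tested genes, and a gene was called risen or fallen at a Benjamini-Hochberg adjusted p under 0.05. Of the 50 tested Rab genes, 3 rose in LNP-Gsdme (Rab7b, Rab8a and Rab24), 2 fell (Rab8b and Rab12), 44 did not pass and Rab22a was not tested. Across all tested genes 6.3% rose and 5.32% fell, and the Rab shares were 6% and 4%. These shares are near the background. The LNP-Gsdme libraries all lay above the LNP-GFP libraries for 13 Rab genes (26%, against 19.6% of all tested genes) and all below for 4 (8%, against 18.2%). The median log2 fold change (LNP-Gsdme over LNP-GFP) was 0.08 over the Rab genes, with a range of -1.12 to 0.99, and -0.01 over all tested genes. No Rab gene passed without LNP-GFP 3, when 0.395% of all genes rose and 0.148% fell. None passed without LNP-Gsdme 1 (107 of all genes rose and 46 fell) or without LNP-Gsdme 2 (119 and 68) either. Only Rab7b and Rab8b passed without LNP-GFP 2, when 594 of all genes rose and 353 fell. Without LNP-Gsdme 3, Rab12 and Rab24 did not pass, while Rab29 and Rab34 did. In that fit 930 of all genes rose and 1201 fell. Without LNP-GFP 1, by contrast, 10 Rab genes passed, when 1625 of 16321 tested genes rose and 1216 fell.

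**Figure D2:**
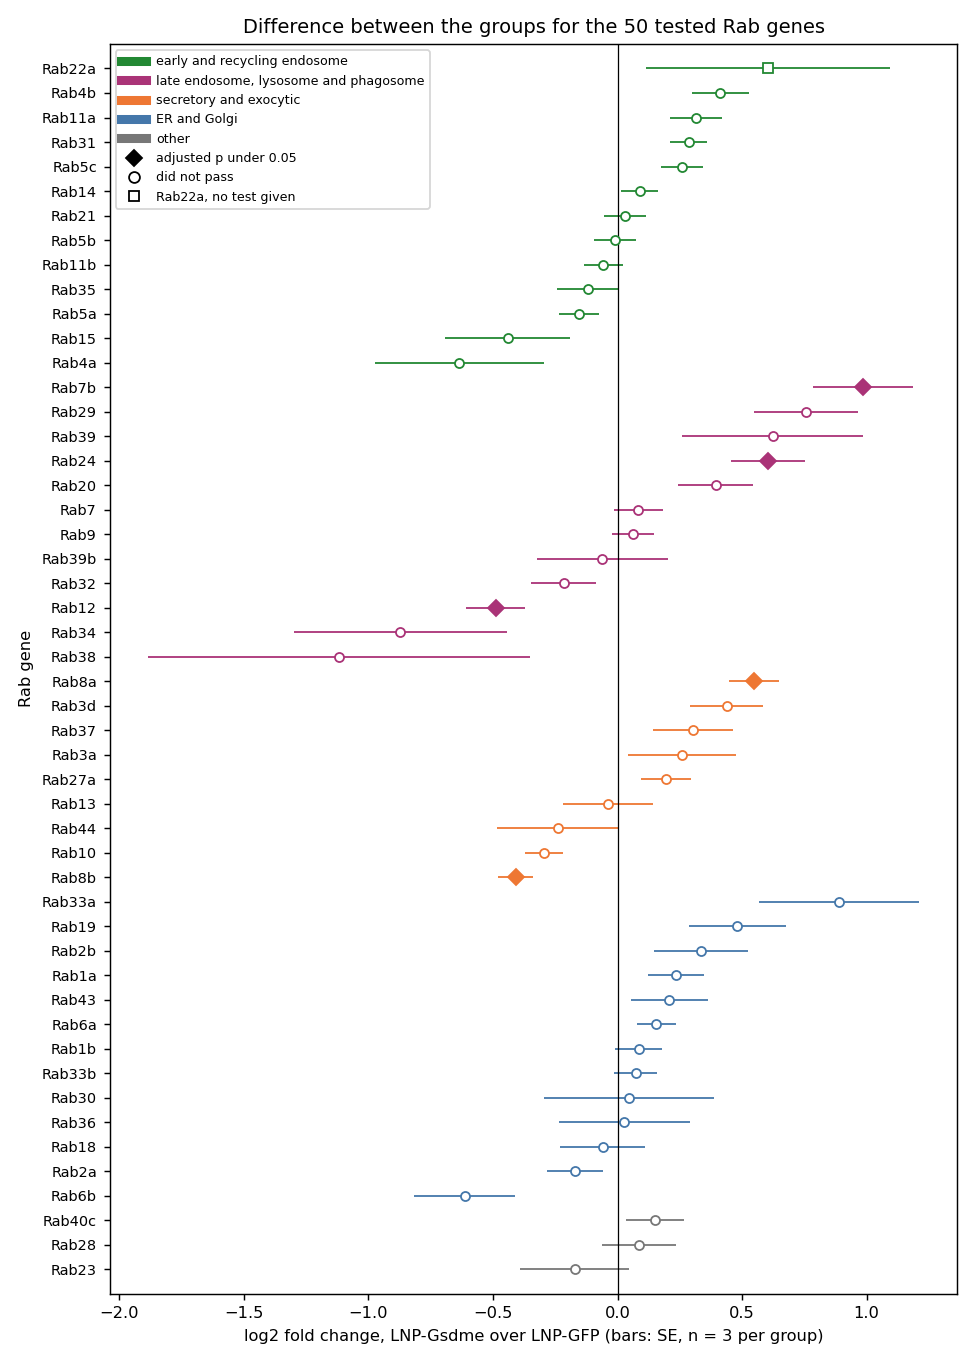
The log2 fold change of LNP-Gsdme over LNP-GFP is plotted for each of the 50 tested Rab genes, grouped and coloured by role class, with bars for the standard error (n = 3 libraries per group). Filled diamonds mark the 5 genes with an adjusted p under 0.05 (edgeR), which lie between -0.49 and 0.99, and the square marks Rab22a, for which no test is given.

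The secretory and exocytic class held the clearest contrast between close relatives. Rab8a and Rab8b both direct vesicles from the Golgi and recycling endosomes to the plasma membrane, and they moved in opposite directions. Rab8b (9:66750946-66826969, GRCm39) was at 955, 953 and 958 CPM across LNP-GFP 1 to 3, against 753, 728 and 679 CPM across LNP-Gsdme 1 to 3. The 3 LNP-GFP libraries were nearly equal and all LNP-Gsdme libraries lay below them. Rab8b fell by 0.41 ± 0.07 (SE, n = 3 per group) on the log2 scale (edgeR adjusted p = 0.0216). Its coefficient of variation in LNP-GFP, 0.252%, was the lowest of the 30 well-expressed Rab genes, whose median was 8.31%. In LNP-Gsdme it was 5.21%, near the median of 5.44% for the same Rab genes, so the small spread was not seen in both groups.

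Rab8a (8:72915044-72937748, GRCm39) was at 110, 100.4 and 105 CPM across LNP-GFP 1 to 3, against 167, 160.4 and 134 CPM across LNP-Gsdme 1 to 3. The groups did not overlap, and LNP-Gsdme 3 was the closest to the LNP-GFP libraries. Its log2 fold change of 0.55 had an SE of 0.10 (n = 3 per group; edgeR adjusted p = 0.0249). The FPKM ratio of Rab8a to Rab8b was 0.109, 0.0994 and 0.103 across LNP-GFP 1 to 3, against 0.209, 0.208 and 0.186 across LNP-Gsdme 1 to 3. Rab8b therefore remained the more abundant of the pair in every library, by a smaller margin in LNP-Gsdme. The order of the 6 libraries by Rab8a was that of the summed NK cell markers (440.1, 114 and 273 CPM across LNP-GFP 1 to 3, against 593, 549 and 458 CPM across LNP-Gsdme 1 to 3). Of these markers 1 of 6 tested rose. Gzmb was the largest of them in every library, while Klrb1c was at 0.699 to 3.31 CPM and Ncr1 averaged under 1 CPM. The 8 T cell markers, of which none passed, summed to 495, 176 and 330 CPM across LNP-GFP 1 to 3. Across LNP-Gsdme 1 to 3 they summed to 545, 527 and 430 CPM, so LNP-Gsdme 3 lay below LNP-GFP 1. Rab20, Rab31 and Rab6a shared the order of the NK cell sum, as did 2.54% of all tested genes. The part of NK cell or T cell RNA in these values was not tested.

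The promoters of this pair are shown because the genes moved in opposite directions. They run from 250 bases before to 50 bases after the RefSeq start site (GRCm38.p6), 5′ to 3′ on the strand of the gene, with each CCAAT box (CCAAT on either strand) in capitals. Rab8a is at chr8:72160950-72161249 on the plus strand and Rab8b at chr9:66919656-66919955 on the minus strand.
Rab8a: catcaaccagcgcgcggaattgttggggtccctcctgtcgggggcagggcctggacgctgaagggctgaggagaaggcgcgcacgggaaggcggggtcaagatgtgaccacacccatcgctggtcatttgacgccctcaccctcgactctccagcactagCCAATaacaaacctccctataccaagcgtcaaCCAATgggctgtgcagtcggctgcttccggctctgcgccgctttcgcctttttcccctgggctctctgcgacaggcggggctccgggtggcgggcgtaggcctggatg
Rab8b: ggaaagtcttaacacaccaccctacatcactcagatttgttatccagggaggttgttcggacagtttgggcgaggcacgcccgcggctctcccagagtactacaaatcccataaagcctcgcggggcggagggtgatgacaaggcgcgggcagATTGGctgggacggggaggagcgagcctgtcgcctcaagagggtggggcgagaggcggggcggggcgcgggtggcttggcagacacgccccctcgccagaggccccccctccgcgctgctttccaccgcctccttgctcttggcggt
Both windows are rich in G and C (64% and 65.3%). Rab8a holds 2 CCAAT boxes and Rab8b holds 1, which reads on the opposite strand. The box is common: 54.2% of the 48 Rab genes with a RefSeq promoter and 41.1% of 27025 genes hold it in this window.

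No other secretory member passed the test. Rab10, which in mouse macrophages is known to bring Tlr4 to the cell surface, was at 266, 294 and 280 CPM across LNP-GFP 1 to 3, against 240, 225 and 220 CPM across LNP-Gsdme 1 to 3. The groups did not overlap and its log2 fold change of -0.29 ± 0.07 (SE over 3 libraries per group) lay just outside the threshold (edgeR adjusted p = 0.0518). Rab3d, a gene of regulated exocytosis, was low at 6.96 to 9.55 CPM in LNP-GFP and 10.98 to 12.2 CPM in LNP-Gsdme, without passing (log2 fold change 0.44, edgeR adjusted p = 0.09998). Rab27a, which docks secretory lysosomes and exosome-bearing compartments, overlapped between the groups at 35.5 to 40.1 CPM and 37.9 to 45.6 CPM.

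The late endosome, lysosome and phagosome class had 2 risen genes and 1 fallen gene among 12 tested. Rab7b, a relative of Rab7 that sorts cargo from late endosomes to the trans-Golgi and in mouse macrophages promotes the breakdown of Tlr4, had the largest log2 fold change of the tested Rab genes. It lies at 1:131616433-131643177 (GRCm39). Rab7b was at 147, 83.3 and 120.0 CPM across LNP-GFP 1 to 3, against 239, 244 and 211 CPM across LNP-Gsdme 1 to 3. The lowest LNP-Gsdme library was above the highest LNP-GFP library. The log2 fold change was 0.99 ± 0.20 (SE over 3 libraries per group; edgeR adjusted p = 0.0316).

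Rab7 itself, which is needed for fusion of late endosomes with lysosomes, overlapped between the groups at 415 to 512 CPM and 464 to 489 CPM. Its log2 fold change was 0.08 (edgeR adjusted p = 0.588). The FPKM ratio of Rab7b to Rab7 was 0.386, 0.180 and 0.321 across LNP-GFP 1 to 3, against 0.542, 0.567 and 0.503 across LNP-Gsdme 1 to 3. Rab7b was thus below Rab7 in level in all libraries, and the 2 groups of ratios did not overlap. A processed pseudogene, Rab7-ps1, was counted at 74.3 to 88.4 CPM, and whether reads of Rab7 were counted there was not tested.

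Rab24, an atypical member found on autophagosomes, was at 26.0, 17.5 and 20.6 CPM across LNP-GFP 1 to 3, against 31.8, 32.5 and 33.2 CPM across LNP-Gsdme 1 to 3. The LNP-Gsdme libraries were nearly equal and all above LNP-GFP. Its log2 fold change was 0.60 ± 0.15 (SE over 3 libraries per group), just inside the threshold (edgeR adjusted p = 0.0467). Rab24 (13:55467556-55469759, GRCm39) shares 1447 bases with Prelid1, which had 36451 counts over the 6 libraries against 3124 for Rab24. The sources used here do not give the strand setting of the counting, so the split of reads between these 2 genes is uncertain. Prelid1 was at 277 to 312 CPM in LNP-GFP and 313 to 336 CPM in LNP-Gsdme, and did not pass (log2 fold change 0.16, edgeR adjusted p = 0.206).

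Rab12, which sends the transferrin receptor from recycling endosomes to lysosomes, fell. It lies at 17:66801507-66826724 (GRCm39) and was at 73.0, 97.1 and 87.3 CPM across LNP-GFP 1 to 3, against 62.0, 57.3 and 64.0 CPM across LNP-Gsdme 1 to 3. Every LNP-Gsdme library was below every LNP-GFP library. The log2 fold change was -0.49 ± 0.12 (SE over 3 libraries per group; edgeR adjusted p = 0.0443). The order of the 6 libraries by Rab12 was the same as by the fibroblast marker sum, an order that 2.36% of all tested genes share. The part of fibroblast RNA in the result was not tested.

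**Figure D3:**
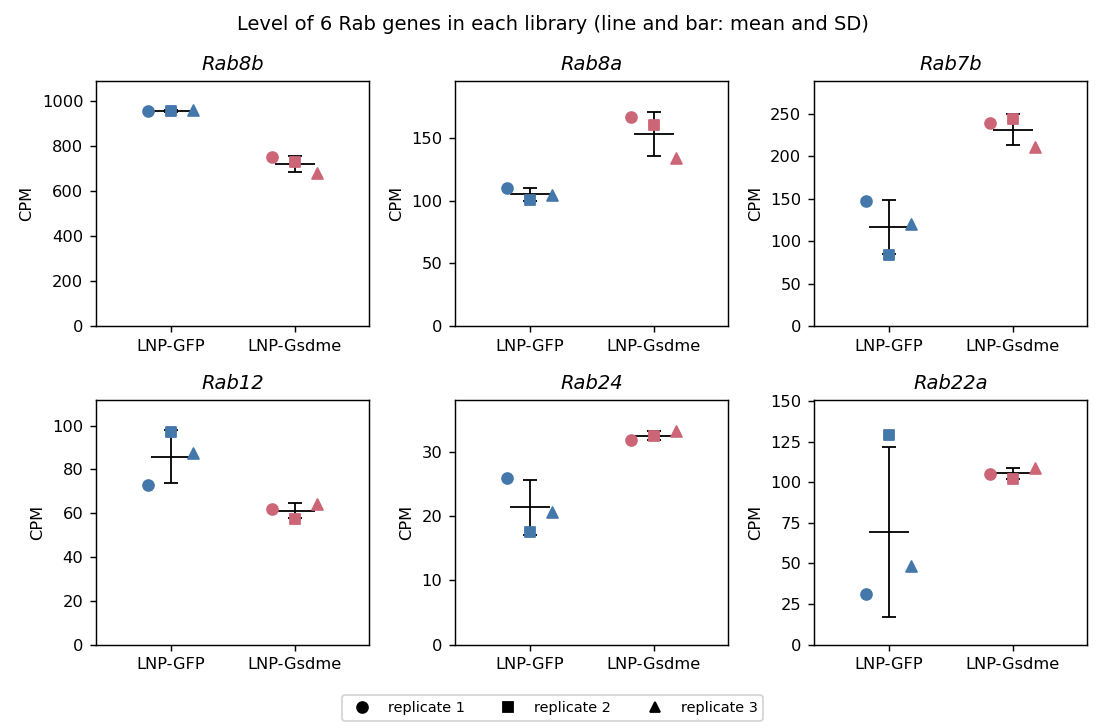
The level in CPM of Rab8b, Rab8a, Rab7b, Rab12, Rab24 and Rab22a is plotted for each library, with a line at the mean and a bar of 1 SD (n = 3 libraries per group). The groups do not overlap for the first 5 genes, while Rab22a spans 30.9 to 129 CPM within LNP-GFP and 102 to 109 CPM within LNP-Gsdme.

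Other genes of the class did not pass. Rab20, the highest member by FPKM, was at 260, 171 and 212 CPM across LNP-GFP 1 to 3, against 289, 280 and 275 CPM across LNP-Gsdme 1 to 3. The groups did not overlap, and the difference (log2 fold change 0.39 ± 0.15, SE, n = 3 per group) did not pass (edgeR adjusted p = 0.129). Rab29, which works with the kinase Lrrk2 at the trans-Golgi and on stressed lysosomes, was at 10.3 to 11.5 CPM in LNP-GFP and 13.7 to 24.3 CPM in LNP-Gsdme (log2 fold change 0.76, edgeR adjusted p = 0.0626), and passed without LNP-Gsdme 3 (0.94, edgeR adjusted p = 0.0229). The 2 closely related genes of lysosome-related organelles, Rab32 and Rab38, differed in how they varied. Rab32 was at 90.8 to 118 CPM in LNP-GFP and 78.6 to 97.4 CPM in LNP-Gsdme.

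Rab38, which with Rab32 serves melanosome formation in pigment cells, had the lowest log2 fold change of the family, -1.12 ± 0.77 (SE, n = 3 per group), and did not pass (edgeR adjusted p = 0.353). That value moved to -0.54 without LNP-GFP 2 and to -2.21 without LNP-Gsdme 3, again without passing. It was at 5.06, 25.3 and 15.9 CPM across LNP-GFP 1 to 3, against 2.92, 3.74 and 14.5 CPM across LNP-Gsdme 1 to 3. LNP-GFP 1 and LNP-Gsdme 1 and 2 were low, and the other 3 libraries were high. The 6 libraries stood in the same order by Rab38 as by the melanoma marker sum. Rab4a, Rab5a and Rab34 also followed that order, which makes 4 of 50 tested Rab genes, against 1.81% of all tested genes. None of these 4 passed the test with all 6 libraries, and the part of melanoma RNA in their values was not tested. Rab34, which positions lysosomes, was at 3.36 to 5.82 CPM in LNP-GFP and 1.57 to 4.43 CPM in LNP-Gsdme (log2 fold change -0.87, edgeR adjusted p = 0.215). Without LNP-Gsdme 3 it passed, at -1.47 (edgeR adjusted p = 0.0399).

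**Figure D4:**
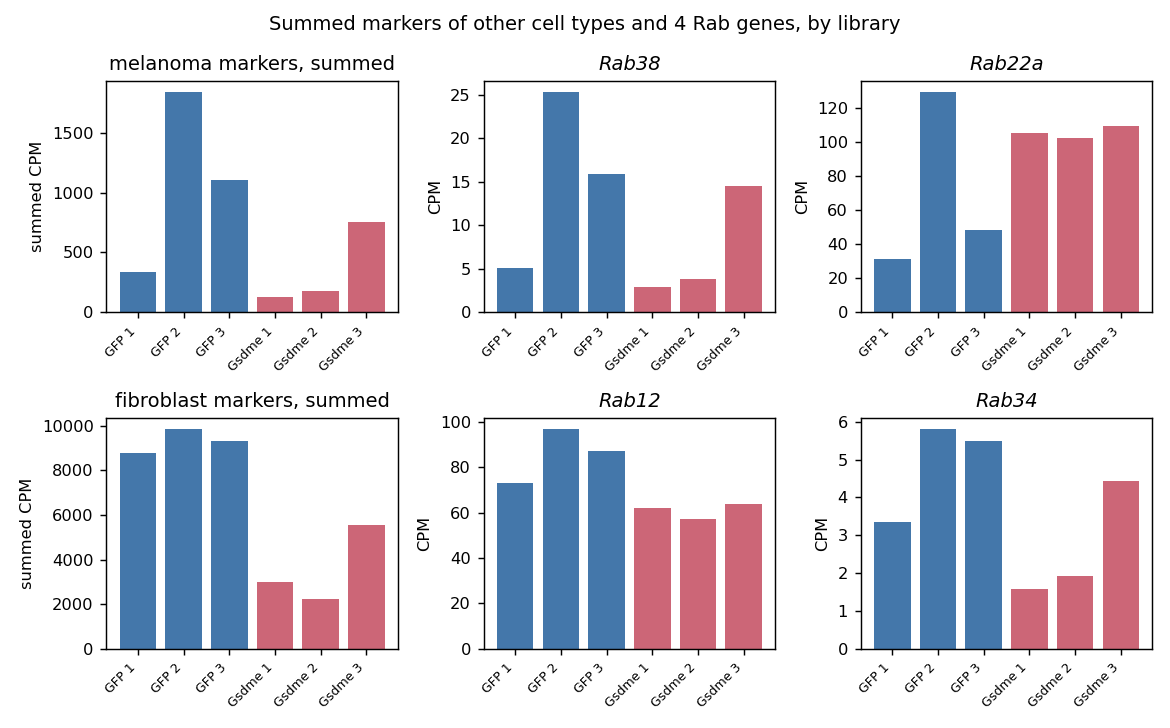
Bars give the summed CPM of the melanoma and the fibroblast markers, and the CPM of Rab38, Rab22a, Rab12 and Rab34, in each of the 6 libraries (blue LNP-GFP, red LNP-Gsdme; axes start at 0). Rab38 and Rab34 follow the order of the melanoma sum and Rab12 that of the fibroblast sum, while Rab22a is high in LNP-GFP 2 and in all LNP-Gsdme libraries.

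In the early and recycling endosome class no gene of the 12 tested passed. Rab22a, which acts in early endosome traffic and in the recycling of MHC class I, was at 30.9, 129 and 48.2 CPM across LNP-GFP 1 to 3, against 105, 102 and 109 CPM across LNP-Gsdme 1 to 3. LNP-GFP 1 and 3 lay far below the LNP-Gsdme libraries and LNP-GFP 2 lay above them, so each control library differed from LNP-Gsdme, but not in the same direction. The groups overlapped. The log2 fold change was 0.60 with all libraries, 1.42 without LNP-GFP 2 and 0.26 without LNP-GFP 1.

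Rab22a was singled out from these same library values, so the ranks that follow only describe it. Its spread within LNP-GFP was large. Its coefficient of variation there was 75.6%, at the 99.7th percentile of the 7822 well-expressed genes, whose median was 8.92%. In LNP-Gsdme it was 3.22%, at the 16.9th percentile. The values rest on 709, 2824 and 965 counts in LNP-GFP 1 to 3. The next protein-coding gene on the chromosome, Vapb, was at 77.6 to 85.9 CPM in LNP-GFP, with a coefficient of variation of 5.77%. Ppp4r1l-ps, on the other side of Rab22a, was at 3.43 to 5.02 CPM there, with 21.3%. The cause of the spread of Rab22a was not tested. Rab22a lies at 2:173501553-173549136 (GRCm39).

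Rab31, the closest relative of Rab22a and also called Rab22b, moves cargo between the trans-Golgi and endosomes and was steadier. It was at 128, 115 and 121 CPM across LNP-GFP 1 to 3, against 154, 148 and 142 CPM across LNP-Gsdme 1 to 3. The groups did not overlap, and the log2 fold change of 0.29 ± 0.07 (SE over 3 libraries per group) was just outside the threshold (edgeR adjusted p = 0.0562). The FPKM ratio of Rab22a to Rab31 ranged from 0.0678 to 0.317 in LNP-GFP and from 0.193 to 0.216 in LNP-Gsdme.

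The 3 Rab5 genes drive fusion of early endosomes. Rab5c was at 318, 269 and 287.5 CPM across LNP-GFP 1 to 3, against 361, 341 and 343 CPM across LNP-Gsdme 1 to 3, without overlap (log2 fold change 0.26, edgeR adjusted p = 0.0901). Rab5a overlapped between the groups at 138 to 159 CPM and 128 to 139 CPM (log2 fold change -0.15, edgeR adjusted p = 0.234). Rab5b was at 60.0 to 63.8 CPM and 56.0 to 65.8 CPM, with a log2 fold change near 0 whose sign changed with the settings. None of the 3 passed. The FPKM ratio of Rab5a to Rab5c was 0.297, 0.404 and 0.350 across LNP-GFP 1 to 3, against 0.242, 0.265 and 0.276 across LNP-Gsdme 1 to 3, so Rab5c was the more abundant in every library.

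Recycling genes gave a similar picture. Rab4b, of fast recycling, was at 39.3 to 52.2 CPM in LNP-GFP and 58.0 to 61.4 CPM in LNP-Gsdme (log2 fold change 0.41, edgeR adjusted p = 0.0636). Its paralog Rab4a was low, at 1.61 to 2.84 CPM and 0.955 to 1.96 CPM. Rab11a, of slow recycling, was at 73.2 to 87.6 CPM in LNP-GFP and 88.8 to 107 CPM in LNP-Gsdme (log2 fold change 0.32, edgeR adjusted p = 0.0963). Its paralog Rab11b was at 37.5 to 41.3 CPM and 36.02 to 39.8 CPM, beside a pseudogene, Rab11b-ps2, that was counted at 42.5 to 44.6 CPM. Rab14, of Golgi to endosome traffic, and Rab21, of integrin endocytosis, overlapped between the groups.

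None of the 13 ER and Golgi members passed either. Rab1a, which with Rab1b controls traffic from the ER to the Golgi, was at 309, 408 and 335 CPM across LNP-GFP 1 to 3, against 421, 403 and 415 CPM across LNP-Gsdme 1 to 3. The groups overlapped through LNP-GFP 2 (log2 fold change 0.24, edgeR adjusted p = 0.203). Rab1b was at 150 to 175 CPM and 156 to 183 CPM, and Rab2a at 135 to 162 CPM and 119 to 145 CPM, both with overlap. Rab6b, a Golgi retrograde traffic gene, had the smallest p of the class and was low, at 2.90 to 3.34 CPM in LNP-GFP and 1.62 to 2.30 CPM in LNP-Gsdme (log2 fold change -0.61 ± 0.20, SE, n = 3 per group; edgeR adjusted p = 0.0941). The widely expressed paralog Rab6a was at 75.1 to 83.9 CPM and 85.0 to 95.1 CPM, without overlap and without passing (log2 fold change 0.16, edgeR adjusted p = 0.230). Rab43, a Golgi member, overlapped at 208 to 299 CPM and 252 to 316 CPM. Of the remaining 3 tested members, of cilia and of ubiquitin ligases, Rab40c had the smallest p and overlapped at 12.04 to 14.5 CPM and 14.0 to 16.1 CPM.

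Summed over classes, the family total was slightly higher in LNP-Gsdme without overlap, at 1093 to 1140 FPKM in LNP-GFP and 1169 to 1180 FPKM in LNP-Gsdme. The secretory and exocytic class held 27.2, 28.2 and 28.4% of it across LNP-GFP 1 to 3, against 22.8, 22.3 and 21.6% across LNP-Gsdme 1 to 3. The groups did not overlap. Rab8b was 61.8% of the class. In FPKM the class summed to 310, 309 and 310 across LNP-GFP 1 to 3, against 269, 262 and 253 across LNP-Gsdme 1 to 3. Without Rab8b, it summed to 109, 112 and 110 FPKM across LNP-GFP 1 to 3, against 111, 108 and 105 FPKM across LNP-Gsdme 1 to 3, with overlap. These are sums, not shares, and the family total itself differed between the groups. The share of the class without Rab8b was not calculated.

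The late endosome, lysosome and phagosome class held 30.4, 27.7 and 29.1% of the family total across LNP-GFP 1 to 3, against 33.0, 33.1 and 33.0% across LNP-Gsdme 1 to 3. Rab20 made up 50.1% of the class. Without Rab20 the groups overlapped, at 160 to 183 FPKM and 182 to 188 FPKM. The early and recycling endosome class held 21.2 to 21.99% and 22.7 to 23.4%, and the ER and Golgi class 20.4 to 21.6% and 21.1 to 21.4%. Without its top member Rab5c, the early and recycling class summed to 159 to 172 FPKM and 174 to 181 FPKM, without overlap. The ER and Golgi class without Rab2a, its top member, summed to 159 to 173 FPKM and 180 to 193 FPKM, also without overlap. These shares and sums are descriptions of the family and were not tested.

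**Figure D5:**
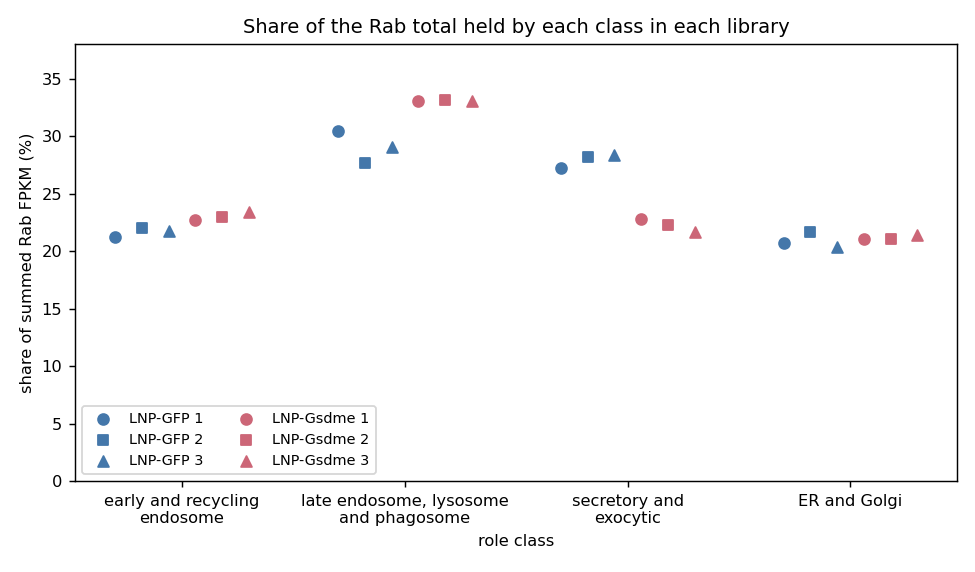
The share of the summed Rab FPKM held by each of 4 role classes is plotted for each library in percent (blue LNP-GFP, red LNP-Gsdme; the axis starts at 0). The secretory share is 27.2 to 28.4% across LNP-GFP libraries and 21.6 to 22.8% across LNP-Gsdme libraries, the late endosome and phagosome share is 27.7 to 30.4% and 33.0 to 33.1%, and the ER and Golgi shares overlap.

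The proteins that regulate or read Rab GTPases were listed apart from the family. Their genes were not picked for how they moved, but earlier results of these data were known when the lists were made. Of 122 listed genes, 120 were matched and 116 were tested, of which 9 rose and 1 fell (edgeR adjusted p under 0.05). Across all tested genes 6.3% rose and 5.32% fell, so the share risen is near the background and the share fallen is below it. With LNP-GFP 3 left out, none rose or fell. Among the 34 GEFs tested, 5 rose and none fell, so the share risen was above that of all tested genes and the share fallen below. These counts are small, and the lists were not tested as sets. Rin2, a GEF of Rab5, was at 141, 144 and 137 CPM across LNP-GFP 1 to 3, against 202, 205 and 216 CPM across LNP-Gsdme 1 to 3 (log2 fold change 0.56 ± 0.07, SE, n = 3 per group; edgeR adjusted p = 0.00922). Rabgef1, also known as Rabex-5 and a GEF of Rab5 and Rab21, rose with a log2 fold change of 0.40 (edgeR adjusted p = 0.0216). Rab3il1, a GEF of Rab8, rose, with 20.2 to 41.8 CPM in LNP-GFP and 57.6 to 69.5 CPM in LNP-Gsdme (log2 fold change 1.13, edgeR adjusted p = 0.0408).

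Among the 35 GAPs tested, 3 rose and 1 fell, so the share risen was a little above that of all tested genes and the share fallen below. Tbc1d4, known as AS160 and a GAP of Rab8a and Rab10 in glucose transporter traffic, fell from 34.7, 56.7 and 47.4 CPM across LNP-GFP 1 to 3 to 17.2, 24.1 and 18.04 CPM across LNP-Gsdme 1 to 3. Its log2 fold change was -1.23 ± 0.21 (SE over 3 libraries per group; edgeR adjusted p = 0.0226), and no LNP-Gsdme library reached an LNP-GFP library. Tbc1d14, which binds Rab11 and limits autophagy, and Tbc1d13, a GAP of Rab35, rose with log2 fold changes of 0.47 and 0.36 (edgeR adjusted p = 0.0188 and 0.0289). Of 40 effectors tested only Rab11fip5, a Rab11 effector, rose (log2 fold change 0.37, edgeR adjusted p = 0.0260). None fell, so both effector shares were below those of all tested genes. None of the 7 genes of prenylation and membrane extraction passed, and the smallest p was that of Rabggtb, the catalytic subunit of the Rab geranylgeranyl transferase (log2 fold change 0.35, edgeR adjusted p = 0.0595).

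Promoter windows of the family were also searched for motifs, which were chosen after some of these sequences had been seen. The CLEAR E-box, a palindrome around CACGTG and the element known to be bound by the lysosome regulator TFEB, was in 3 of the 48 Rab genes with a promoter (6.25%) and in 0.37% of 27025 genes. These windows are shown because they carry that element. Each has 25 bases on either side of the motif, which is in capitals (GRCm38.p6, 5′ to 3′ on the strand of the gene). Rab5a is at chr17:53479112-53479171 (plus), Rab21 at chr10:115315589-115315648 (minus) and Rab24 at chr13:55321946-55322005 (minus).
Rab5a: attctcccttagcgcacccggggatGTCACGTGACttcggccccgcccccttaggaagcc
Rab21: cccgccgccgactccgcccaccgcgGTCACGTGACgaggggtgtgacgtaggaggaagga
Rab24: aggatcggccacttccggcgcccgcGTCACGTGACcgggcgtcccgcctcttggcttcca
The 3 genes did not share a response. Rab24 rose (log2 fold change 0.60), Rab5a did not pass (-0.15) and Rab21, whose sign changed with the settings, did not pass either (0.03). The shorter core CACGTG, which lies inside the CLEAR E-box, was in 12.5% of the Rab genes and 8.09% of all genes. Interferon-type elements were in 2.08% (the interferon-stimulated response element, both strands) and 10.4% (the GAS element) of the Rab genes, against 3.99% and 9.55% of all genes. A match describes the letters of the window and is not a measured binding site.

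Counting could blur some members. In the deposited annotation 34 of the 59 Rab genes overlap another gene, and for 8 of them the overlapping gene has more counts. Besides Rab24 with Prelid1, these include Rab2b with Tox4 (22659 counts against 642) and Rab37 with Cd300lf (22145 against 428). Values of these low members are therefore uncertain.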

How the data were processed

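RNA was sequenced from sorted tumour monocytes, in 3 LNP-GFP and 3 LNP-Gsdme libraries, grouped by the treatment label. Per the labels' protocols, libraries were paired-end TruSeq preparations of column-extracted total RNA. The authors deposited raw counts and FPKM per gene, per the file headers. Gene positions are on GRCm39, as the submitters' processing notes name it. The sources used here do not give an aligner, a counting tool or a strand setting.

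The deposited counts were tested in R 4.3.3 with edgeR 4.0.16 (filterByExpr by group with its default minimum count of 10, TMM scaling, robust quasi-likelihood test, Benjamini-Hochberg adjustment over 16010 genes). CPM are counts over tested-gene library size times TMM factor. FPKM were used for levels, for ratios between paralogs and for the class and family sums and shares. They were taken as deposited, without the TMM scaling. Scripts were tested on simulated data. Alternatives were DESeq2 1.42.0, limma-voom (limma 3.58.1), other scalings and filters, a replicate block and each library left out.

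The members, role classes and lists were chosen with earlier results of these data known. The rule for named genes took Rab22a, called members, the 8 highest by FPKM, paralogs of called members, the smallest p in classes without a call, and up to 3 genes per partner list. Other genes in the text were chosen after their values were seen. Promoters are from RefSeq (GRCm38.p6), matched by symbol for 48 of 59 genes, and none of their coordinates was set against the GRCm39 positions. Values from different libraries carry counting error, which is largest for genes near the filter.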

Additional observations from a re-analysis of the deposited data

How the results depend on the processing

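The count of Rab genes that rose (3) was 7 with DESeq2 and 0 with the replicate block, and 0 to 7 with each library left out in turn. The count that fell (2) was 0 with the replicate block and 0 to 3 with a library left out. Leaving out a library changed the number of all genes that rose to 64 to 1625 and that fell to 24 to 1216, from 1008 and 851. Partner genes rose in 0 to 25 cases and fell in 0 to 5. With DESeq2, 1543 genes rose and 1505 fell, with 22 and 7 partner genes. With the replicate block, 103 genes rose and 52 fell, with 0 partner genes risen. Deviations of same-numbered libraries correlated at 0.18, -0.28 and 0.01. Libraries with different numbers were not set beside them, so these values do not show whether the numbers pair the samples. Without a low-count filter 5 partner genes rose and 2 fell. Fallen partner genes were 3 with upper-quartile scaling and 2 with library size only or the stricter filter. The log2 fold change of Rab5b turned positive with library size only (0.015) and ranged from -0.051 to 0.062 with a library left out. That of Rab21 turned negative with upper-quartile scaling (-0.016) and ranged from -0.036 to 0.091 with a library left out. The cause was not tested. The 5 called Rab genes kept their direction under all 15 alternatives. Their groups did not overlap, so this was largely fixed beforehand and says little about how firm the calls are. Low members are limited by depth.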
